A study of Sus scrofa with 4 samples.

Results

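The 10 genes described here encode matricellular proteins: the tenascins TNC and TNXB, periostin (POSTN), SPARC and its relative SPARCL1, the thrombospondins THBS1 and THBS2, osteopontin (SPP1), and the CCN proteins CCN1 and CCN2. They were chosen by gene name among the 29263 genes of each count table. All 10 were found, and all 10 were among the 19682 genes that passed the filter on low counts. The libraries come from pig lung cells sorted by green fluorescence. All 4 libraries share the genotype, LGR5-H2B-GFP knock-in. The inserted gene makes histone H2B joined to green fluorescent protein (GFP) wherever LGR5 is transcribed; LGR5 is a receptor for the Wnt-amplifying R-spondins. The group GFP-HI holds the bright cells and the group GFP-NEG (negative) the cells without fluorescence, with 2 biological replicates in each. The labels give no treatment and no age; the protocol covers adult and fetal animals together, and the name of the authors' comparison table contains the words adult pig. The labels do not say whether animals were pooled. A histone-bound reporter is long-lived, so fluorescence can outlast transcription of the gene.

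Matricellular proteins are secreted into the extracellular matrix, where they do little to bear load. They bind integrins, syndecans, CD36 or CD47 on cells, and collagens, fibronectin and growth factors in the matrix, and so alter adhesion, collagen fibre assembly and growth factor access. In lung, tenascin-C, periostin and osteopontin are known for their rise during development, injury and fibrosis, and CCN1 and CCN2 are standard readouts of the mechanosensitive YAP and TEAD transcription factors. Levels below are CPM, counts scaled to library size and corrected by TMM (the trimmed mean of M values, which adjusts for RNA composition). No transcript lengths were used, so levels are compared between libraries and not between genes.

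The GFP-HI libraries held 24200550 and 24689986 counts, against 6292253 and 7045652 in GFP-NEG, so depth and group cannot be told apart by design. LGR5 itself was at 146 and 152 CPM in GFP-HI and at 1.55 and 0.767 CPM in GFP-NEG. Among lung cell markers, the 14 fibroblast markers summed to 89506 and 85489.7 CPM in GFP-HI and to 26872 and 9617 CPM in GFP-NEG. GFP-NEG replicate 1 also held more smooth muscle and pericyte signal (2732 CPM summed over 11 markers) than GFP-NEG replicate 2 (434 CPM). The 10 pan-leukocyte and lymphocyte markers ran the other way, at 3176 and 5091 CPM in the GFP-NEG libraries and 281 and 632 CPM in GFP-HI. The GFP-NEG libraries are therefore unlike each other in the markers of the cells best known for making matricellular proteins, and each result below is given per library. In bulk samples, fewer cells of a type and less RNA per cell cannot be told apart.

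The 10 genes split into those whose groups were fully apart and those whose groups overlapped. TNC, TNXB, POSTN and SPARCL1 were higher in GFP-HI past the threshold of 0.05 on the adjusted p-value (edgeR, Benjamini-Hochberg over 19682 genes), and SPARC was higher in both GFP-HI libraries without passing it. THBS1, THBS2, SPP1, CCN1 and CCN2 overlapped between the groups and did not pass. Thus 4 of 10 were higher and 0 were lower (also 0 at an unadjusted p under 0.05), where 8.35% of all tested genes were called higher and 27.6% lower. By DESeq2 at the same threshold, 5 of 10 were higher and 0 lower, against 5.60% and 24.9% of genes with an adjusted p-value. The authors' deposited table lists the same 5 with an adjusted p-value under 0.05, against 8.20% of its genes higher and 11.2% lower. With the replicate number as a block in edgeR, 4 of 10 were higher and 0 lower, against 8.67% and 24.4% of all tested genes. The median log2 fold change was 1.00 over the 10 genes and -0.25 over all tested genes; with library size alone these were 0.69 and -0.68. The median over the 10 genes rested on the GFP-NEG libraries, at 2.48 without GFP-NEG replicate 1 and 0.27 without GFP-NEG replicate 2. The 5 genes whose groups were apart were all higher in GFP-HI, a position held by 27.7% of tested genes, while 42.0% were apart in the other direction.

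**Figure D1:**
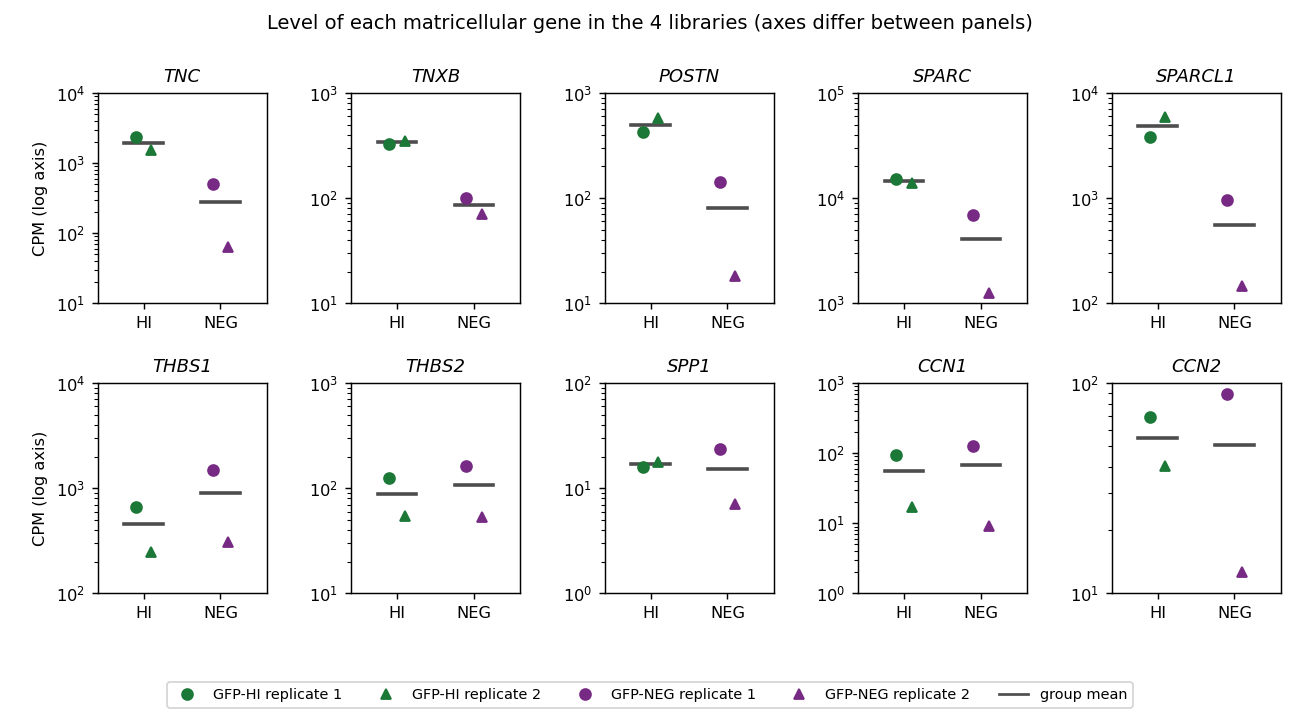
CPM (log axis, a different range in each panel) of the 10 matricellular genes in each library; circles are replicate 1, triangles replicate 2, and horizontal lines the group means. In the upper row the GFP-HI libraries lie above both GFP-NEG libraries, as for TNXB at 328 and 353 against 99.5 and 70.6 CPM, and in the lower row the groups overlap.

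TNC encodes tenascin-C, a large hexameric glycoprotein that weakens cell adhesion to fibronectin. It had 51846 and 31155 counts in the GFP-HI libraries (2349 and 1544 CPM) and 3186 and 582 counts in GFP-NEG (495 and 63.8 CPM). Both GFP-HI values lay above both GFP-NEG values, and the GFP-NEG pair was itself 7.75-fold apart. The group means were 1947 ± 569 CPM and 279 ± 305 CPM (SD, n = 2 each), which gave a log2 fold change of 2.80 (standard error, SE, 0.93; edgeR adjusted p of 0.0095). Within replicate 1 the log2 difference was 2.25, and within replicate 2 it was 4.60. The call was lost without GFP-NEG replicate 2 (log2 fold change 1.94, adjusted p of 0.35), without GFP-HI replicate 1 (2.55, 0.056) and without GFP-HI replicate 2 (3.10, 0.051), and the value rose to 4.98 without GFP-NEG replicate 1 (adjusted p over all 12 alternatives from 0.0012 to 0.35).

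TNXB encodes tenascin-X, the tenascin that binds fibrillar collagen and whose loss causes a form of Ehlers-Danlos syndrome. Its counts were 7234 and 7111 in the bright libraries and 641 and 644 in the negative ones, which is 328 and 353 CPM against 99.5 and 70.6 CPM. Its GFP-HI values differed by 1.08-fold and its GFP-NEG values by 1.41-fold, the smallest gap between GFP-NEG libraries among the 10 genes. The group means were 340.1 ± 17.5 CPM and 85.1 ± 20.5 CPM (SD, n = 2 each). The log2 fold change was 2.00 (SE 0.65, edgeR adjusted p of 0.0076), with 1.72 within replicate 1 and 2.32 within replicate 2. Between fits its value moved less than that of the other called genes, from 1.59 with library size alone to 2.32 without GFP-NEG replicate 1. Its call was still lost without GFP-NEG replicate 2 (adjusted p of 0.29) and without GFP-HI replicate 2 (0.057), within a range of 6.0e-04 to 0.29 over 12 alternatives.

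In the RefSeq gene table for the assembly Sscrofa11.1, the span of TNXB overlaps CYP21A2, the adrenal steroid 21-hydroxylase, and ATF6B, a stress-response transcription factor. CYP21A2 had 265 and 487 counts in the bright libraries, 20 and 14 in the negative ones, and a log2 fold change of 2.98 (edgeR adjusted p of 3.2e-04). ATF6B had a log2 fold change of 0.18 (edgeR adjusted p of 0.82). Whole gene spans were compared, and overlap of exons was not checked. The strand setting of the counting is not given in the sources used here. Whether reads of an overlapping gene entered the TNXB counts was not tested. In the same table POSTN and SPARC each overlap a lncRNA, and CCN1 overlaps ZNHIT6, which had a log2 fold change of 0.63 (edgeR adjusted p of 0.37).

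POSTN encodes periostin, a fasciclin-domain protein that links collagen, tenascin-C and the collagen-processing enzyme BMP1. It had 9286 and 11668 counts in the bright libraries (421 and 578 CPM) and 918 and 165 in the negative ones (143 and 18.1 CPM). The groups did not overlap, and GFP-HI was higher by 2.95-fold within replicate 1 and 32.0-fold within replicate 2. The difference in size between the replicates came with the 7.88-fold gap between the GFP-NEG libraries rather than with GFP-HI, where the gap was 1.37-fold. The group means were 499.6 ± 112 CPM and 80.3 ± 88.0 CPM (SD, n = 2 each). The log2 fold change was 2.64 (SE 0.70), and the edgeR adjusted p of 8.7e-04 was the smallest of the 10. It was 4.84 without GFP-NEG replicate 1. The call was lost without GFP-NEG replicate 2 (1.77, adjusted p of 0.30) and without GFP-HI replicate 2 (2.42, adjusted p of 0.061), in a range from 3.2e-04 to 0.30 over 12 alternatives.

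SPARC and SPARCL1 are related collagen-binding proteins; SPARC (osteonectin) assists collagen handling and fibril assembly, and SPARCL1 (hevin) is its longer relative. Together they made up 82.3% and 87.4% of the counts of the 10 genes in GFP-HI, as against 74.9% and 71.8% for GFP-NEG. SPARC alone took 1.37% and 1.14% of all counts in the bright libraries, against 0.706% (replicate 1) and 0.160% (replicate 2) for GFP-NEG. On the CPM scale SPARC was at 15049.9 and 13947 in GFP-HI and at 6893 and 1238 in GFP-NEG. SPARCL1 was at 3811 and 5903 CPM in GFP-HI and at 964 and 145 CPM in GFP-NEG. For both genes the groups did not overlap.

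SPARCL1 had group means of 4857 ± 1479 CPM (GFP-HI) and 554 ± 579.6 CPM (GFP-NEG, SD, n = 2 each). Its fold change was the largest of the 10, 3.13 on the log2 scale (SE 1.15, edgeR adjusted p of 0.022), with 1.98 within replicate 1 and 5.35 within replicate 2. Its value was 5.12 without GFP-NEG replicate 1, and its call was lost without GFP-NEG replicate 2 (2.29, adjusted p of 0.29) and without GFP-HI replicate 2 (2.81, adjusted p of 0.086), with 1.9e-04 to 0.29 as the range over 12 alternatives. In the RefSeq table the span of DSPP, a dentin gene, overlaps that of SPARCL1. DSPP had 530 and 428 counts in GFP-HI, 160 and 127 in GFP-NEG, and a log2 fold change of 0.23. The log2 fold change of SPARC, 1.83, had an SE of 1.50 and an edgeR adjusted p of 0.36, although the GFP-HI mean was 14499 ± 779.5 CPM and the GFP-NEG mean 4065 ± 3999 CPM (SD, n = 2 each). In this fit the spread of a gene is taken from genes of like abundance, with no separate weight for its own replicates. DESeq2 gave the same fold change with an adjusted p of 0.026, and the authors' deposited table lists 1.83 and 0.026, so the SPARC call depended on the test (0.026 to 0.75 over 12 alternatives, 3.60 on the log2 scale without GFP-NEG replicate 1 and 1.03 without GFP-NEG replicate 2).

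**Figure D2:**
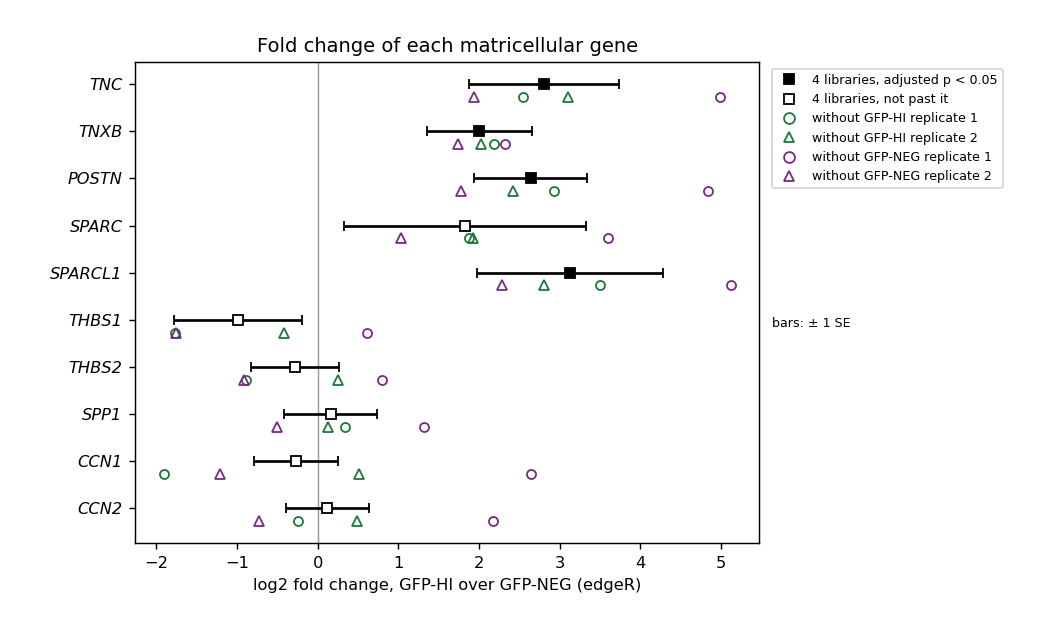
Log2 fold change of each gene (GFP-HI over GFP-NEG, edgeR): squares are the fit to 4 libraries with ± 1 SE, filled at an adjusted p-value under 0.05, and open coloured symbols are fits without the library named. The first 5 genes stay above 0 in every fit shown, while CCN1 runs from -1.91 without GFP-HI replicate 1 to 2.64 without GFP-NEG replicate 1.

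THBS1 and THBS2 encode the trimeric thrombospondins, which bind CD36 and CD47 and restrain blood vessel growth; thrombospondin-1 also activates latent TGF-beta. THBS1 was at 659 and 249.7 CPM in GFP-HI and at 1499.7 and 309 CPM in GFP-NEG. THBS2 was at 124 and 54.4 CPM in GFP-HI and at 163 and 53.1 CPM in GFP-NEG. For both genes replicate 1 was the higher library in each group, and the groups overlapped. THBS1 had a log2 fold change of -0.99 (SE 0.79, edgeR adjusted p of 0.34) and THBS2 of -0.28 (SE 0.55, adjusted p of 0.74). THBS1 was lower in GFP-HI within both replicates, by -1.19 and -0.31 on the log2 scale, and turned to 0.61 when GFP-NEG replicate 1 was left out. THBS2 turned to 0.80 without that library and to 0.25 without GFP-HI replicate 2. Neither passed the threshold under any of 12 alternatives.

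SPP1 encodes osteopontin, an acidic integrin and CD44 ligand that macrophages make in diseased lung. It had few counts, with 354 and 361 in the bright libraries and 151 and 64 in the negative ones. On the CPM scale the GFP-HI libraries, at 16.0 and 17.9, lay between the GFP-NEG libraries, at 23.4 and 7.02. The log2 fold change was 0.16 (SE 0.58, edgeR adjusted p of 0.86). The difference was -0.55 within replicate 1 and 1.35 within replicate 2, and the fitted sign turned with upper-quartile scaling (-0.09), with library size alone (-0.18) and without GFP-NEG replicate 2 (-0.50), against 1.32 without GFP-NEG replicate 1. The 10 macrophage markers found in the files summed to 1904 CPM in GFP-NEG replicate 1 and 720.1 CPM in GFP-NEG replicate 2, and to 565 and 498 CPM in GFP-HI. Their sum followed the order of SPP1 in the GFP-NEG pair and ran opposite to it in GFP-HI. In the GFP-NEG pair CSF1R alone went the other way, at 238 CPM in replicate 1 and 330 CPM in replicate 2. No macrophage marker was at 0 in any library, and their part in the SPP1 values was not tested.

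CCN1 and CCN2 (formerly CYR61 and CTGF) encode cysteine-rich integrin ligands, both induced by YAP and by serum and stress signals. CCN1 had 2071 and 341 counts in the bright libraries and 805 and 84 in the negative ones, or 93.8 and 16.9 CPM against 125 and 9.21 CPM. CCN1 therefore differed more between replicates, by 5.55-fold in GFP-HI and 13.6-fold in GFP-NEG, than between the groups within a replicate. CCN2 was at 69.3 and 40.5 CPM in GFP-HI and at 88.8 and 12.6 CPM in GFP-NEG, again highest in replicate 1 of each group. The log2 fold changes were -0.27 (SE 0.52, edgeR adjusted p of 0.73) for CCN1 and 0.12 (SE 0.51, adjusted p of 0.89) for CCN2. Without GFP-NEG replicate 1 they were 2.64 and 2.17 and passed the threshold (adjusted p of 0.0065 and 0.022), and without GFP-NEG replicate 2 they were -1.21 and -0.73 (not passed). Adjusted p ranged from 0.0065 to 0.92 for CCN1 and from 0.022 to 1 for CCN2 over 12 alternatives. The direction of both genes thus changed with the GFP-NEG library left out, and that of CCN2 also with upper-quartile scaling (-0.09) and with library size alone (-0.16).

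The spread between replicates separated the 10 genes further. In GFP-NEG, 9 of the 10 were more than 2-fold higher in replicate 1 than in replicate 2, TNXB being the exception, against 13.2% of the 19570 tested genes with counts in both libraries. In GFP-HI, 3 of the 10 were so (THBS1, THBS2 and CCN1), against 14.1% of tested genes. The summed level of the 10 was 22920.0 and 22705 CPM in GFP-HI, nearly equal, and 10494 and 1926 CPM in GFP-NEG. Over the same GFP-NEG pair the fibroblast markers differed 2.79-fold, the smooth muscle and pericyte markers 6.29-fold and the endothelial markers 2.44-fold, all higher in replicate 1. The part of these cells in the matricellular values was not tested.

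**Figure D3:**
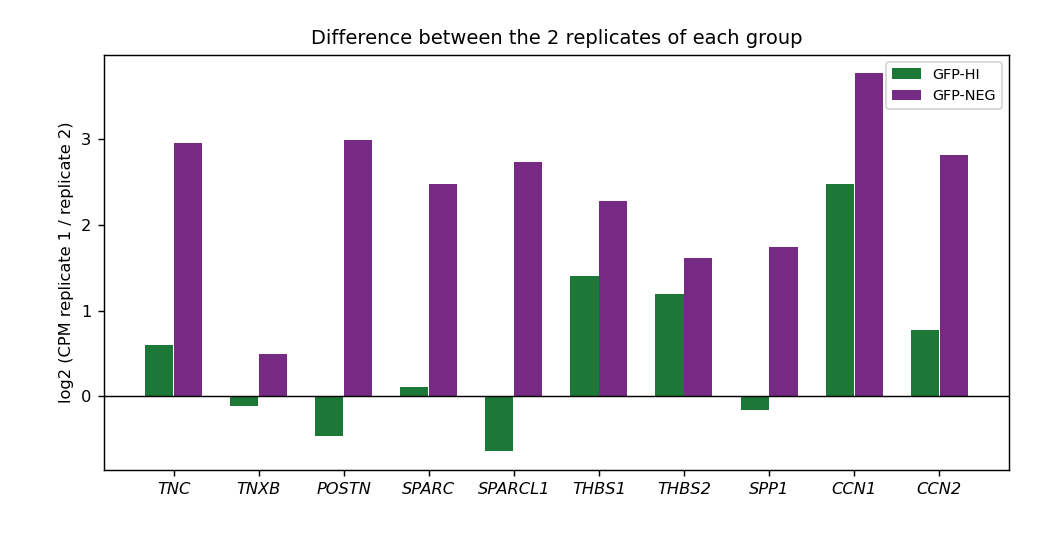
Log2 ratio of CPM in replicate 1 to replicate 2, for GFP-HI (green) and GFP-NEG (purple); bars start at 0. The GFP-NEG bars are all positive and the TNXB bar (a ratio of 1.41) is the shortest, while the tallest is CCN1 (13.6-fold).

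A ratio of counts within a library does not depend on scaling between libraries, so each gene was also set against the summed counts of the 14 fibroblast markers, which include the abundant collagens COL1A1, COL1A2 and COL3A1. These markers took 8.16% and 6.98% of all counts in GFP-HI, as against 2.75% and 1.25% for GFP-NEG. In GFP-HI replicate 1, COL1A1, COL1A2 and COL3A1 took 1.78%, 2.74% and 1.62% of all counts. In GFP-NEG replicate 2 they took 0.375%, 0.431% and 0.287%. They made up most of the marker sum in every library, and none of them passed in edgeR. The ratios are therefore set largely by the 3 collagens, and ratios to the other markers were not computed. Per 100 such counts, SPARCL1 had 4.26 and 6.90 in GFP-HI against 3.59 and 1.50 in GFP-NEG, and was the only one of the 10 with higher values in both bright libraries than in both negative ones (1.03% of tested genes had this position). TNC, at 2.62 and 1.81 against 1.84 and 0.663, was higher within each replicate but the groups overlapped. TNXB was at 0.366 and 0.412 against 0.370 and 0.734, POSTN at 0.470 and 0.677 against 0.530 and 0.188, and SPARC at 16.8 and 16.3 against 25.7 and 12.9. These 3 genes therefore overlapped once set against this sum, in which the collagens weigh most. THBS1, THBS2, SPP1 and CCN2 were lower in both GFP-HI libraries on this measure, as were 89.8% of all tested genes, so nothing is read from that position; CCN1 was lower within each replicate, with overlapping groups. THBS1, for example, had 0.736 and 0.292 against 5.58 and 3.22.

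Relatives of the 10 genes, from a list of 20 that all passed the filter, included 6 that were higher and 4 that were lower in GFP-HI, and the other 10 did not pass. The median log2 fold change was 0.84. Over all tested genes 8.35% were higher and 27.6% lower, so the lower relatives are no larger a share than the background. By the rule for named genes these are COMP, TGFBI and CCN5; the other relatives named here were chosen after their values were seen. TGFBI, the fasciclin-domain relative of periostin, was at 2951 and 1569.9 CPM in GFP-HI and at 237 and 106 CPM in GFP-NEG. Its log2 fold change was 3.72 (SE 0.99, edgeR adjusted p of 8.7e-04; 0.066 without GFP-NEG replicate 2). COMP, the pentameric thrombospondin of cartilage and tendon, went the other way, at 24.2 and 8.87 CPM in GFP-HI and at 402 and 41.5 CPM in GFP-NEG. Its log2 fold change was -3.74 (SE 0.63, edgeR adjusted p of 2.0e-07), but -1.28 without GFP-NEG replicate 1 (adjusted p of 0.14) and -3.17 without GFP-HI replicate 2 (0.051).

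Within families, members did not move as one. Among the tenascins, TNC and TNXB were higher, while the neural tenascin TNR (0.68) and TNN (0.00) did not pass. Among the thrombospondins, THBS3 was higher (log2 fold change 2.33), COMP was lower, and THBS1, THBS2 and THBS4 did not pass. Among the CCN genes, CCN4 (2.35), a Wnt-induced member also called WISP1, and CCN5 (2.75) were higher, whereas CCN1, CCN2, CCN3 and CCN6 did not pass. CCN5 was low but steady, at 18.4 and 15.1 CPM in GFP-HI and 2.79 and 2.19 CPM in GFP-NEG, and stayed past the threshold in each of 4 fits without 1 library (adjusted p from 0.0075 to 0.043). In the SPARC family SPARCL1 was higher, SPOCK2 (-1.58) and SPOCK3 (-3.75) were lower, and SPARC and FSTL1 (2.46, adjusted p of 0.077) did not pass. With the replicate number as a block FSTL1 passed (2.92, adjusted p of 0.0092). Without GFP-HI replicate 1, GFP-HI replicate 2, GFP-NEG replicate 1 and GFP-NEG replicate 2, in that order, 3, 5, 9 and 2 of the relatives were higher and 2, 0, 1 and 3 lower.

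**Figure D4:**
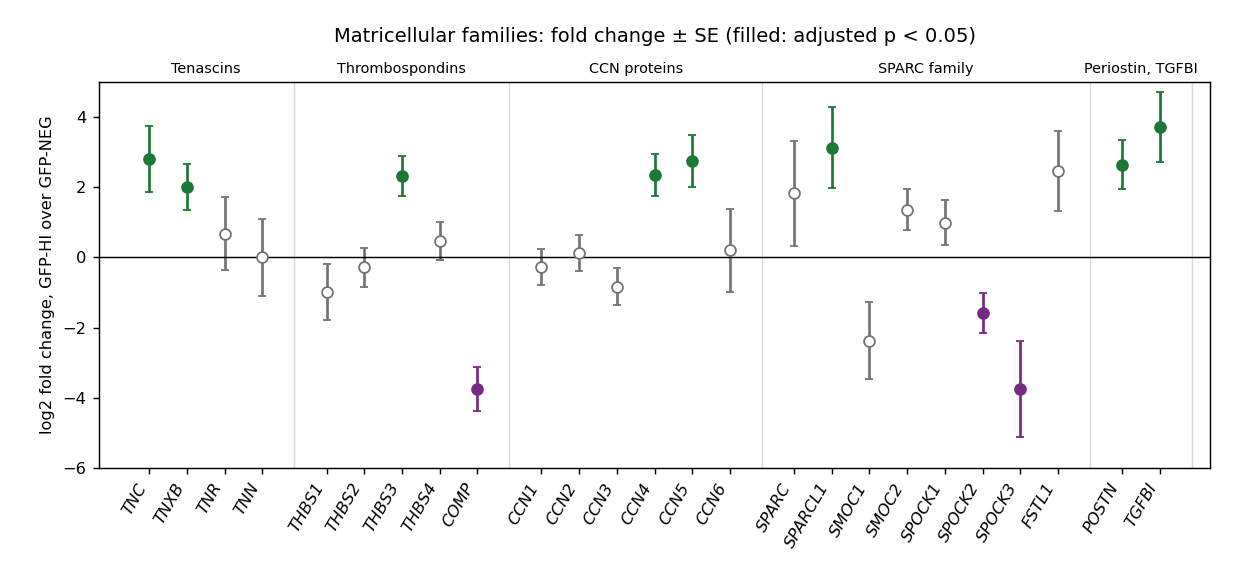
Log2 fold change (GFP-HI over GFP-NEG, edgeR, ± 1 SE) of the matricellular genes and their relatives by family; filled symbols have an adjusted p-value under 0.05, green for higher and purple for lower. Each family with more than 2 members shown holds members that did not pass, and the thrombospondins span -3.74 (COMP) to 2.33 (THBS3).

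RNA levels were also read for 14 partner genes, which encode matrix proteins or enzymes that process them. The matrix itself was not measured. COL1A1, COL1A2, COL3A1, DCN and LUM are fibroblast markers here as well, so both lists share genes and are not separate observations. Of the 14 partners, 9 were higher and 0 lower in GFP-HI by edgeR, where 8.35% of all tested genes were higher and 27.6% lower. The median log2 fold change was 2.37. By DESeq2, 13 of the 14 were higher and 0 lower, against 5.60% and 24.9% of genes with an adjusted p-value. With the replicate number as a block 10 were higher. The count of higher partners thus depended on the test. LUM, DCN and FBN1, a pair of collagen-binding proteoglycans and the fibrillin of elastic microfibrils, had log2 fold changes of 3.96, 3.57 and 3.50 (edgeR adjusted p of 0.0036, 0.023 and 5.2e-04). A pair of collagen-processing genes, outside the rule and chosen after their values were seen, were BMP1 (2.58, adjusted p of 5.5e-05) and LOX (3.10, adjusted p of 0.0011), which cleaves and crosslinks collagen in turn. FN1, the fibronectin that tenascin-C binds, did not pass in edgeR (1.45, adjusted p of 0.39). Leaving out GFP-HI replicate 1, GFP-HI replicate 2, GFP-NEG replicate 1 or GFP-NEG replicate 2 gave 7, 6, 10 and 0 higher partners.

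Of 15 receptors for matricellular proteins tested, 3 were higher, 3 lower and 9 did not pass; the median log2 fold change was 0.33. Over all tested genes 8.35% were higher and 27.6% lower, so the lower receptors are no larger a share than the background. EGFR, which the EGF-like repeats of tenascin-C can engage, was higher (2.28, edgeR adjusted p of 1.8e-04), as was ITGB8, the integrin subunit that helps activate TGF-beta (2.02, adjusted p of 0.0023). ITGA4, an integrin subunit of leukocytes that binds osteopontin, was lower, at 4.26 and 14.6 CPM in GFP-HI and 87.9 and 234 CPM in GFP-NEG (-4.09, adjusted p of 3.6e-09). The leukocyte markers moved with it, as given above, and their part was not tested. CD44 and CD47 did not pass (-0.22 and -0.19, adjusted p of 0.83 and 0.85). With the replicate number as a block 5 receptors were higher and 3 lower. The counts in the 4 fits without 1 library, in the order used above, were 2, 2, 4 and 0 higher and 1, 2, 2 and 1 lower.

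A pair of induction programmes known for CCN1, CCN2 and THBS1 were examined beside them. The background for both was 8.35% of all tested genes higher and 27.6% lower. In the YAP and TEAD list, 6 of 19 genes were higher and 2 lower, with a median log2 fold change of 1.03. Under DESeq2 and with library size alone 3 were higher. Its lower genes are a smaller share than the background. TGFB2 (2.25, edgeR adjusted p of 2.2e-04) was higher, and NUAK2 (-3.75, adjusted p of 1.8e-08) and F3 (-2.18, adjusted p of 3.1e-04) were lower. NUAK2 is a stress-activated kinase, and F3 is the tissue factor that starts coagulation. In the fits without 1 library, in the same order, 2, 2, 9 and 0 of the list were higher and 2, 1, 1 and 2 lower. The list of early genes induced by tissue dissociation had 9 of 13 genes lower in GFP-HI, 0 higher and a median of -2.10, with 7, 2, 6 and 5 lower in the fits without 1 library. NR4A1, ATF3 and ZFP36 led it (-3.26, -3.13 and -2.63; edgeR adjusted p of 2.1e-05, 2.3e-04 and 0.019). Its summed level was 3708 and 2106 CPM in GFP-HI and 12694 and 9874 CPM in GFP-NEG. The sum was higher in replicate 1 of each group, as CCN1, CCN2 and THBS1 were, but in GFP-NEG by 1.29-fold only, and FOSB, EGR2, ZFP36 and NR4A1 were higher in replicate 2 there. The part of this response in the CCN1, CCN2 and THBS1 values was not tested.

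TGF-beta induces several of the 10 genes, and thrombospondin-1 can activate it. Of 17 TGF-beta genes, 7 were higher and 2 lower, with a median log2 fold change of 0.93. The background was 8.35% of all tested genes higher and 27.6% lower, so the lower TGF-beta genes are a smaller share. LTBP2, LTBP1 and TGFBR3 had the largest changes (3.38, 3.37 and 3.23; edgeR adjusted p of 3.2e-04, 0.0015 and 4.6e-04). LTBP1 holds latent TGF-beta in the matrix, and TGFBR3 is the coreceptor betaglycan. Of the ligands, TGFB2 and TGFB3 were higher (2.25 and 2.29) and TGFB1 was lower (-1.92, edgeR adjusted p of 0.0021). TGFB2 is counted in the YAP and TEAD list as well. Without 1 library, in the order used above, 6, 6, 7 and 0 were higher and 1, 0, 1 and 1 lower.

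**Figure D5:**
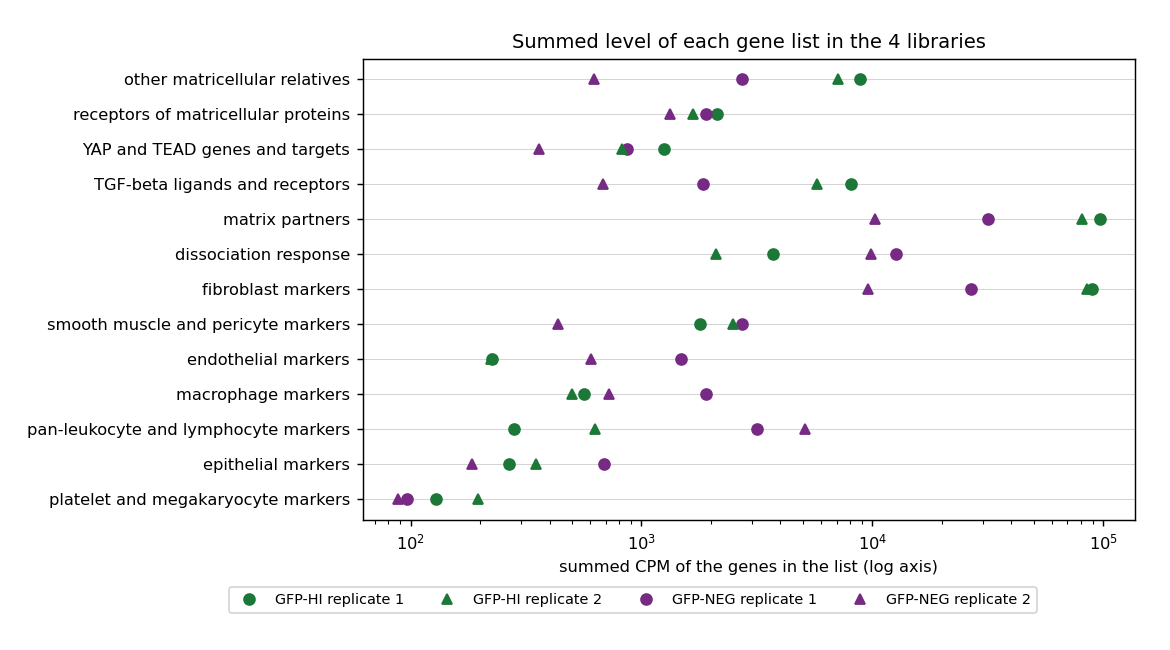
Summed CPM (log axis) of the genes of each list in each library; circles are replicate 1 and triangles replicate 2. Both GFP-HI libraries lie above both GFP-NEG libraries for the fibroblast markers, matrix partners, matricellular relatives, TGF-beta genes and platelet markers. GFP-NEG replicate 1 lies to the right of GFP-NEG replicate 2 in every list drawn except the pan-leukocyte and lymphocyte markers.

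Cell type markers were set beside these results, where 8.35% of all tested genes were higher and 27.6% lower. Of the fibroblast markers 11 of 14 were higher and 0 lower (median log2 fold change 2.95); FBLN1, DPT and LUM led at 4.40, 4.09 and 3.96. Of 11 smooth muscle and pericyte markers 1 was higher, CSPG4 (1.96), and 5 were lower, among them MYH11 (-2.34) and RGS5 (-2.10), with groups of ACTA2 and TAGLN overlapping. The endothelial markers had 9 of 10 lower, led by CLDN5 (-2.93), KDR (-2.63) and CDH5 (-2.62), and the leukocyte markers 9 of 10 lower, led by CD79B (-4.21) and CD3E (-4.11). Macrophage markers had 4 of 10 lower, with CSF1R at -3.08, C1QB at -1.50 and MRC1 at -1.49. Epithelial markers had 2 of 9 lower, CDH1 (-1.69) and SFTPB (-1.61). The epithelial share is below the background of lower genes, and the macrophage share is not far above it. With the replicate number as a block, 2 smooth muscle and pericyte markers were higher and 3 lower, and 2 macrophage markers were lower, without C1QB (adjusted p of 0.12). Without 1 library, in the order used above, 2, 1, 0 and 4 of the smooth muscle and pericyte list, 5, 2, 3 and 8 of the endothelial list, 1, 0, 1 and 3 of the macrophage list, 1, 0, 0 and 2 of the epithelial list and 9 of the leukocyte list each time were lower. The smooth muscle and pericyte list turned in direction with 1 library: its median log2 fold change was -0.85 with 4 libraries and 0.92 without GFP-NEG replicate 1, where 4 of its genes were higher and 0 lower. The median of the macrophage list likewise went from -1.01 to 0.09 without that library. Platelet markers, relevant because platelets store thrombospondin-1 and SPARC, had 0 of 4 tested genes past the threshold in edgeR or DESeq2 (1 lower at an unadjusted p under 0.05), with PPBP at 7.38 and 19.9 CPM in GFP-HI and 7.92 and 5.48 CPM in GFP-NEG and with ITGA2B at 0.86 on the log2 scale (adjusted p of 0.24). Of the mesothelial markers only WT1 and CALB2 were found; they had a summed level of 3.18 CPM or less and were not tested. In the other lists tested, a direction with 0 genes also had 0 at an unadjusted p under 0.05 in edgeR and 0 in DESeq2. Without GFP-NEG replicate 2 the fibroblast list had 2 higher genes; without GFP-HI replicate 1 and GFP-HI replicate 2 it had 7 and 6.

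Likeness of pattern over the 4 libraries was measured as the distance between log2 CPM profiles, each centred on its mean, among 9245 other genes with a symbol and a mean of at least 10 CPM. It is a description over 4 libraries. The closest genes of so many lie below the median distance by construction, so the medians give only the scale. No meaning of a shared pattern was tested. The closest gene to TNC was AXIN2, the negative feedback regulator of Wnt signalling, at a distance of 0.15, followed by the laminin chain LAMB1 at 0.22, against a median distance of 3.70. The closest to TNXB were the zinc finger gene ZNF449 (0.09) and the formin FMNL2 (0.13), against a median of 1.79. PLAC9 was the closest gene to both POSTN (0.28) and SPARCL1 (0.23), followed by KDELR3 (0.30) and the elastic fibre gene FBLN5 (0.25). Among the 10 genes themselves, POSTN and SPARCL1 were the closest of the pairs with at least 1 called gene, at 0.44, and TNXB was no closer than 1.44 to any other (SPARC).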

How the data were processed

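RNA was sequenced from 4 libraries of sorted pig lung cells, 2 GFP-HI and 2 GFP-NEG. For each library the authors deposited raw gene counts as whole numbers. Per the submitters' processing notes, featureCounts, Subread 1.5.2 and DESeq2 1.37.6 were used; the aligner, strand setting and genome build are not given in the sources used here. The authors also deposited a comparison table with a log2 fold change and an adjusted p-value per gene; its count columns are identical to the single tables. Its 4 normalized columns were not used.

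The main test was edgeR 4.0.16 (R 4.3.3, glmQLFit and glmQLFTest) on the deposited counts, with TMM scaling, filterByExpr and group as the only term, adjusted by Benjamini-Hochberg over 19682 genes; prior degrees of freedom were infinite. CPM are on edgeR's TMM scale. SE is the log2 fold change over the square root of F. DESeq2 1.42.0 was an alternative. Of the identifiers, 834 were renamed with a provided symbol table. On simulated counts for 18687 genes of this comparison, 20.7% of 92 genes changed by 2 on the log2 scale and 57.0% of 107 changed by 3 were recovered, with 3.61% of calls false. These counts were drawn from the spread fitted here, with far fewer changed genes and no difference in cell make-up. The false share therefore need not hold for the data.

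The members and gene lists were chosen with earlier results of these data known. The rule named all 10 members, up to 3 called genes of each list with the largest change and at least 5 mean CPM (or, with none, 2 by level), and the 2 genes most like each called member; other list genes were named after their values were seen, and a gene that the rule named is not reported here. In fits without 1 library, the lone library is assumed to vary like the other group. The same replicate number is taken to mark the same animal, since headings of the deposited table name pig 1 and pig 2 in both fractions; deviations from group means of replicate 1 correlated across genes (r = 0.16), though the headings of a pair of normalized columns carry another library's counts. Nothing says more of how replicates were taken, so p-values measure only the spread between these libraries. In edgeR that is the spread of genes of like abundance rather than of each gene alone. RefSeq coordinates are not printed, and no sequences were used.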

Additional observations from a re-analysis of the deposited data

How the results depend on the processing

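TNC, TNXB, POSTN and SPARCL1 kept their direction under all 12 alternatives and their call under all 8 that used 4 libraries, as did SPARC its direction; SPARC passed only under DESeq2. Without GFP-HI replicate 2 and without GFP-NEG replicate 2, 0 of the 10 genes were called higher, so the count of 4 ran from 0 to 6 over the fits without 1 library, and 0 were lower in each. Of all genes, 1643 were higher and 5433 lower with 4 libraries. The higher count was 1083 with upper-quartile scaling and 888 with library size alone, and ran from 216 to 1635 without 1 library; the lower count was 3563 with GFP-HI thinned to the GFP-NEG depth, where fewer genes were tested (16493), and ran from 1575 to 4999 without 1 library. The log2 fold change of THBS1 ran from -1.77 to 0.61 in the fits without 1 library and that of THBS2 from -0.91 to 0.80; both were positive without GFP-NEG replicate 1, and THBS2 also (0.25) when GFP-HI replicate 2 was left out. SPP1 turned to -0.09 with upper-quartile scaling and -0.18 with library size alone, and ran from -0.50 (without GFP-NEG replicate 2) to 1.32. CCN1 turned to 0.21 with the replicate block, and ran from -1.91 to 2.64 without 1 library, with 0.51 when GFP-HI replicate 2 was left out. CCN2 turned to -0.09, -0.16 and -0.0014 with upper-quartile scaling, library size alone and thinning, and ran from -0.73 (without GFP-NEG replicate 2) to 2.17, with -0.24 when GFP-HI replicate 1 was left out. The cause of these turns was not tested.

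With the replicate block, a fit that pairs same-numbered libraries, 4 of the 10 genes were higher (8.67% of all genes were) and the same 4 were called; 1707 genes were higher and 4793 lower. The block gave 3.42 for TNC, 2.02 for TNXB, 3.27 for POSTN, 3.67 for SPARCL1 and 2.31 for SPARC on the log2 scale. It moved the receptor list from 3 to 5 higher, the smooth muscle and pericyte list from 1 to 2 higher and from 5 to 3 lower, and the macrophage list from 4 to 2 lower; among the named list genes it changed the call of FSTL1 and C1QB only. Under DESeq2, 1 relative (4 in edgeR), 3 smooth muscle and pericyte genes, 2 macrophage genes and 1 TGF-beta gene (2 in edgeR) were lower. The same test called 13 matrix partners higher (9 in edgeR). The YAP and TEAD list had 3 higher genes (6 in the main test) under both of these scalings, DESeq2, thinning and the filter of at least 1 CPM in 2 libraries. The latter filter and no filter gave 2 lower macrophage genes and 1 lower TGF-beta gene, and thinning 1 lower TGF-beta gene. One count is worth 0.110 to 0.155 CPM in GFP-NEG and 0.0453 to 0.0496 CPM in GFP-HI, so depth limits genes near these levels.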
